A study of Mus musculus with 93 samples.

Results

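The 42 genes described here encode enzymes and carriers that break down fatty acids and the branched-chain amino acids in mitochondria and peroxisomes. They were taken by name from the deposited tables, where all 42 are found among 24528 genes. The rule uses names only, but the list was drawn up with earlier results of these data known. Expression was measured by RNA sequencing of 93 cerebral cortices, each from a single hemisphere, of mice of 10 groups. HET mice carry the Chd8 V986 allele on 1 chromosome (written Chd8V986*/+), come from WT C57BL/6J dams bred with HET males, and were compared with WT mice of the same litters, except that at 18 months only 4 of 6 litters held both genotypes. Dams received deltamethrin (DM), a pyrethroid insecticide, at 3 mg/kg in peanut butter every 3 days from conception, or the oil vehicle alone. At postnatal day (PND) 5 there were 10 HET and 12 WT libraries after DM, and 10 HET and 12 WT libraries after oil, of both sexes, with the dams still being fed. At 12 months there were 10 HET and 10 WT males whose dams had received DM until PND 22, and 9 HET and 9 WT males of oil-fed dams. A separate cohort of 5 HET and 6 WT males of 18 months received no exposure. The mutation is present in every cell, so the mice do not tell which cell type a difference comes from, and exposure differed between litters while genotype differed within them.

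To be burned, a long fatty acid is joined to coenzyme A and carried into the mitochondrion by the carnitine shuttle. There it is shortened by repeated rounds of beta-oxidation. The electrons of the acyl-CoA dehydrogenase step reach the respiratory chain through electron transfer flavoprotein. Peroxisomes shorten very long and methyl-branched chains, and share several of the chemical steps. Leucine, isoleucine and valine lose their amino group, pass the branched-chain keto acid dehydrogenase complex and are then oxidised by related dehydrogenases, with propionyl-CoA as an end product of isoleucine and valine. In the brain, neurons oxidise little fat and astrocytes hold much of this capacity. CHD8 is a chromatin remodeler, and heterozygous mutations of its gene are a known cause of autism.

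Values are deposited as variance-stabilized counts, which are on a log2 scale, and technical terms had been removed from them. A level is therefore given in log2 units, shifts between genes and between the tables of different ages carry no meaning, and only differences within a gene and table are read. Levels below are adjusted for batch, sex, dissector and litter number. Differences were fitted with limma, and a gene is called at an adjusted p (Benjamini-Hochberg over 15450 genes, or 16421 genes at 18 months) under 0.05. All 42 members passed the filter on tied low values at every age. All 6 excitatory neuron markers passed the same filter at every age. Chd8 itself was lower in HET, with fitted log2 differences of -0.59 (SE 0.092) at PND 5 with oil, -0.48 (SE 0.093) at PND 5 with DM, -0.61 (SE 0.10) and -0.69 (SE 0.096) at 12 months with oil and with DM, and -0.51 (SE 0.035) at 18 months. It was lower in the HET littermates of all 6, 9, 10 and 4 litters of the PND 5 oil, 12 month oil, 12 month DM and 18 month sets, but only in 6 of 7 DM litters at PND 5. In the remaining litter the library labelled HET female 1 had a Chd8 level of 12.46, above the 11.86 of the next HET library, and its sister labelled WT female 1 had 11.79, below all other WT libraries of that group. Results of PND 5 are therefore also given without this pair, a choice made after its values were seen. Cell type markers and depth are described where they move with a result, and read depth per library is unknown because the tables hold no counts.

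Promoters were read for the members from RefSeq (GRCm38.p6), as 300 bases from 250 before to 50 after the transcription start. 38 of the 42 members matched, with 40 promoters. The median promoter of the members held 17 CpG pairs and 59.5% G or C, against 7 CpG pairs and 52.7% over 32851 mouse promoters. The GC box GGGCGG, the motif of Sp1-like factors, was present on either strand in 29 of the 40 member promoters (72.5%), against 35.7% of all promoters. The PPAR and RXR direct repeat, the element through which PPARs switch on fat oxidation in liver, was in 0 of the 38 members and in 0.0396% of all promoters. The oestrogen-related receptor element TCAAGGTCA was in 0 members and in 0.423% of promoters. The NRF1 element was found in Acad10 and Etfdh (0.971% of all promoters), CCGGAAGT of ETS factors in Cpt2 and Slc25a20 (3.89%), and the E-box CACGTG in Mccc2 (7.15%). These matches describe the letters of the window only.

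The promoters of 3 genes are printed because the results below turn on their genes: Acox3, called higher in HET at 12 months in both exposures, Ehhadh, a peroxisomal enzyme called lower after DM, and Hadhb, which shares its start region with Hadha. Capitals mark GGGCGG on either strand, with 5 matches in Acox3, some of which share a base, 2 in Ehhadh and 4 in Hadhb.
Acox3, chr5:35582784-35583083, + strand: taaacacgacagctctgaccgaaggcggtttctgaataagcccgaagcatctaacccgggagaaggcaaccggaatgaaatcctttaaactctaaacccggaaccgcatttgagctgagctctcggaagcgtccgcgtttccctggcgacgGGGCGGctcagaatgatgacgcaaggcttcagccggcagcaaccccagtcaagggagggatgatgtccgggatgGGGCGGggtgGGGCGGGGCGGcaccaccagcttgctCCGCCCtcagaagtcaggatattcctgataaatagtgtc
Ehhadh, chr16:21787785-21788084, - strand: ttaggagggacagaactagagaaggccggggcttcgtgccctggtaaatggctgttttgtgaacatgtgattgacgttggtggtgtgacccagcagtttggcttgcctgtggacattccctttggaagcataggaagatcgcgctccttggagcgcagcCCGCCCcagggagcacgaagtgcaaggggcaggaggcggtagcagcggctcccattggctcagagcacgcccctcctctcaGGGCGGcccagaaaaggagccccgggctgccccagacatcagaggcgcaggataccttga
Hadhb, chr5:30155003-30155302, + strand: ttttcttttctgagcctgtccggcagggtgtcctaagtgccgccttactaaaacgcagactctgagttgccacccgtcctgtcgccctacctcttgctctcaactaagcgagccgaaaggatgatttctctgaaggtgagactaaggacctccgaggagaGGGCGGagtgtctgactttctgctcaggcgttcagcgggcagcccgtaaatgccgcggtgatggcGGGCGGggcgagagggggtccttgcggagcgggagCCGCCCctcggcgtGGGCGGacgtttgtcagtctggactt

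Across the comparisons of HET with WT, few of the 42 genes passed the test. At PND 5 most members lay lower in HET, 32 of 42 in oil-exposed mice (median log2 difference -0.05, against -0.0013 over all genes tested) and 30 of 42 after DM (median -0.033, against -0.0056). At 12 months 15 of 42 lay lower after oil (median 0.028, and 24 of 42 with a median of -0.02 without batch 1) and 17 of 42 after DM (median 0.021), and at 18 months 23 of 42 (median -0.0081). By the test over all genes, limma called 0 members at PND 5 with oil, where 0.583% of all genes were called, and 0 at PND 5 with DM, where 0.239% were. It called 1 member at 12 months with oil, against 1.81% of all genes, and 3 members at 12 months with DM, against 3.64%. Over all genes the calls after DM were 334 higher and 229 lower, and 254 higher and 338 lower when each library was centred on its median. At 18 months 0 members were called, against 0.146%, and with the litter block 0 against 0.0183%. Without correction, p lay under 0.05 for 10, 3, 5, 5 and 6 members in these comparisons in turn, against 7.54%, 6.08%, 18.7%, 19.9% and 12.3% of all genes.

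**Figure D1:**
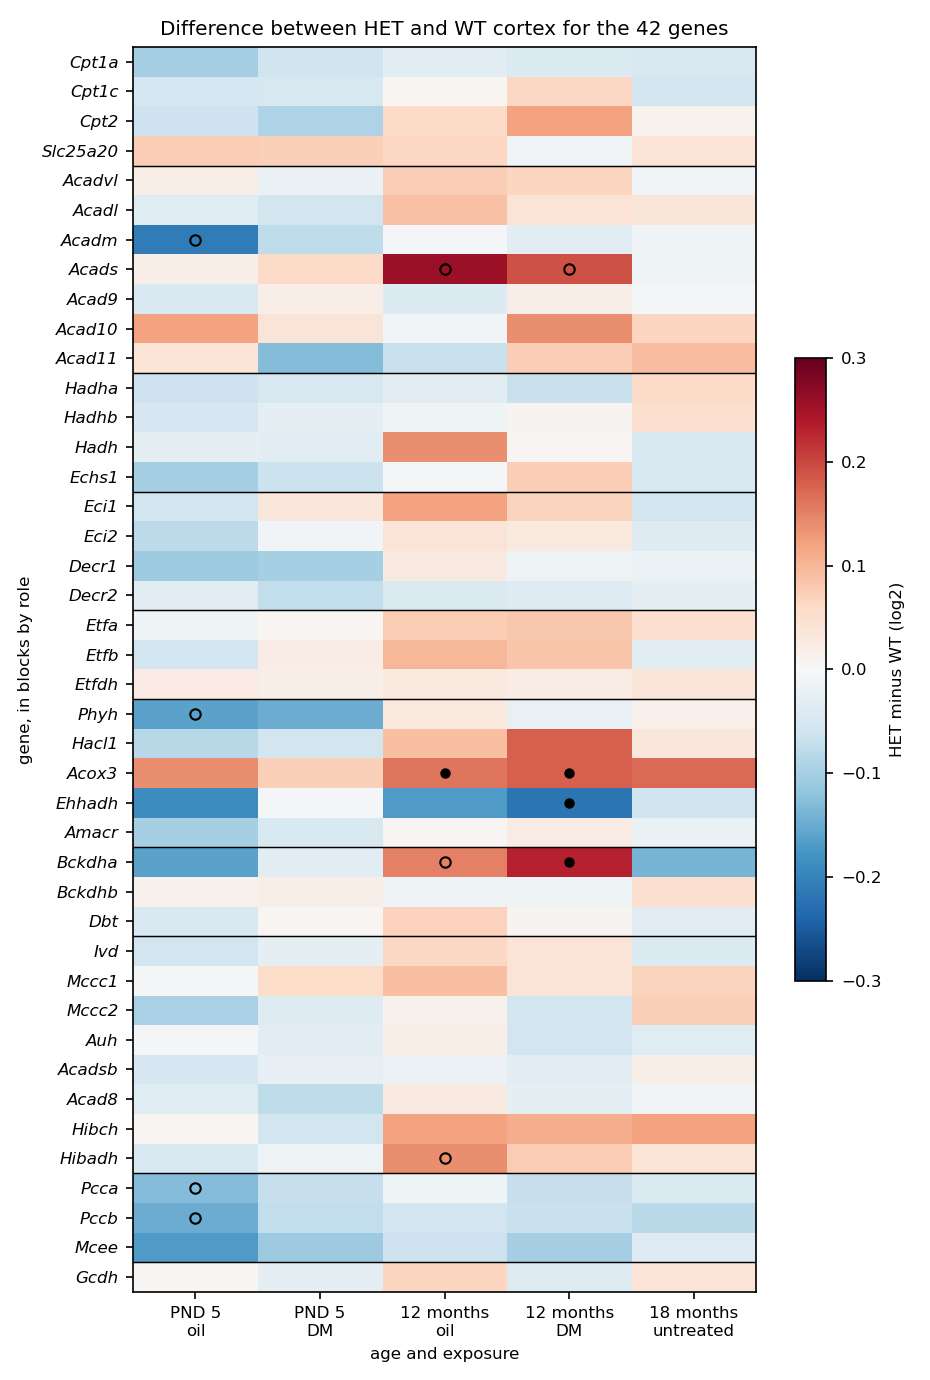
Fitted HET minus WT difference (log2, colour) of each of the 42 genes, in rows by role, for the 5 combinations of age and exposure, in columns. Filled circles mark adjusted p under 0.05 and open circles mark adjusted p under 0.05 only with the litter as a replicate block; the row of Acox3 is red in all 5 columns and that of Ehhadh is blue or near white.

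The 5 comparisons share no library. In all 5 of them Acox3 and Etfdh lay higher in HET, and Acadm, Cpt1a, Decr2, Ehhadh, Mcee, Pcca and Pccb lay lower. These are 9 of 42 members (21.4%), against 18.4% of 15416 genes measured in both tables, so the share of the members is close to that of all genes. The 7 that lay lower are 16.7% of the members against 10.3% of all genes, and the 2 that lay higher are 4.76% against 8.04%.

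Acox3, which encodes a peroxisomal acyl-CoA oxidase that acts on methyl-branched chains, rose in HET cortex at 12 months in both exposures. The gene lies at chr5:35583040-35615352 on the + strand of mm10, and the only gene that overlaps it, 4931431C16Rik, is on the other strand, which these stranded libraries tell apart. In oil-exposed males of 12 months the lowest, median and highest levels were 8.73, 8.84 and 9.00 in HET, against 8.54, 8.71 and 8.89 in WT. After DM they were 8.77, 8.87 and 8.96 in HET, against 8.58, 8.68 and 8.79 in WT. The groups overlapped in both exposures, but the HET male lay above its WT brother in each of the 9 litters of oil-fed dams and each of the 10 litters of DM-fed dams. The differences were 0.16 (SE 0.043, adjusted p = 0.0327) after oil and 0.18 (SE 0.04, adjusted p = 0.00382) after DM.

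At the other ages Acox3 lay in the same direction without passing the test. In oil-exposed mice of PND 5 the levels were 8.13, 8.26 and 8.42 in HET, against 7.91, 8.13 and 8.24 in WT, a difference of 0.14 (SE 0.039, adjusted p = 0.0953), and HET was higher in 5 of 6 litters. Leaving out HET oil female 5 gave a call (0.16, adjusted p = 0.0439). After DM they were 8.10, 8.27 and 8.39 in HET, against 8.13, 8.18 and 8.38 in WT, a difference of 0.072 (SE 0.039). The lowest HET and the highest WT library there are the pair that goes against its labels, and without it HET ran from 8.24 to 8.39 and WT from 8.13 to 8.27, with a difference of 0.11 (SE 0.039, adjusted p = 0.33). Averaged over both exposures at PND 5, a comparison added after the values were seen, Acox3 differed by 0.10 (SE 0.028, adjusted p = 0.0232), and by 0.12 (adjusted p = 0.0027) without that pair.

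At 18 months Acox3 had levels of 10.40, 10.39, 10.45, 10.32 and 10.33 in the 5 HET males, against 10.14, 10.23, 10.31, 10.07, 10.22 and 10.29 in the 6 WT males. Every HET value was above every WT value, and the difference was 0.17 (SE 0.044), with an unadjusted p of 0.00179 and an adjusted p of 0.153. HET was higher in 4 of 4 litters that held both genotypes.

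The call of Acox3 in oil-exposed males of 12 months rests on few animals. It was lost when any of 6 of the 18 libraries was left out: WT replicates 2 (adjusted p = 0.0625), 3 (0.11) and 8 (0.0737) and HET replicates 1 (0.104), 2 (0.125) and 9 (0.085), with differences of 0.14 to 0.15. It was also lost with sample weights (0.11, adjusted p = 0.108). The call after DM held without any 1 of the 20 libraries, at adjusted p of 0.00232 to 0.0132.

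**Figure D2:**
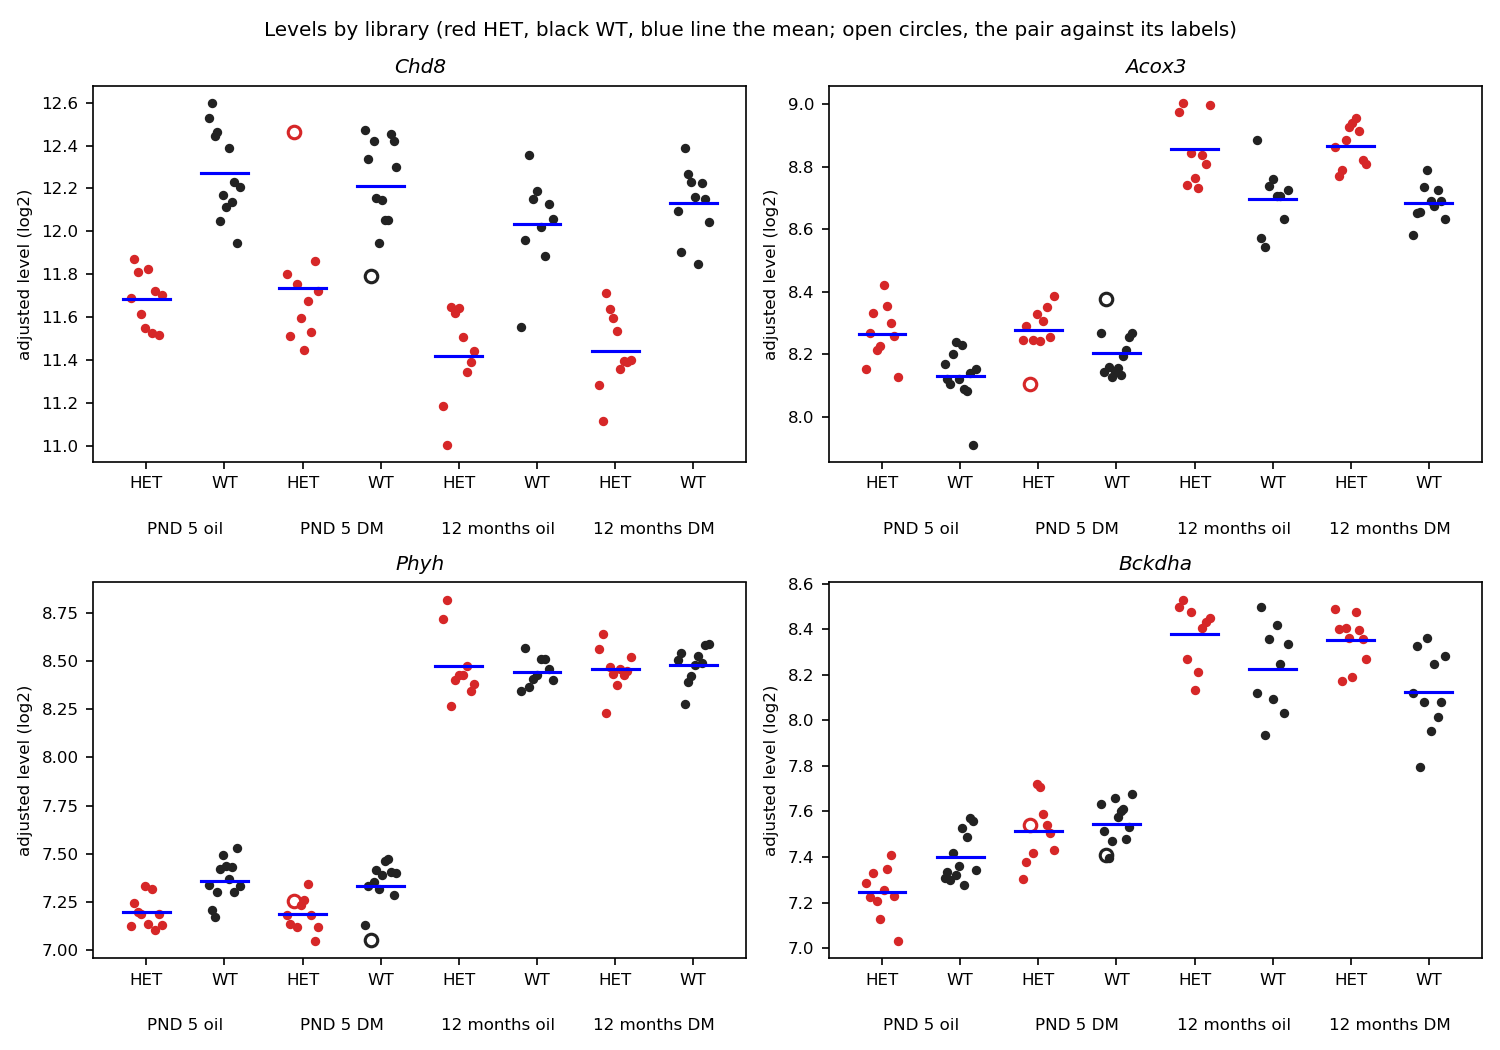
Adjusted levels (log2, vertical axis) of Chd8, Acox3, Phyh and Bckdha in each library of PND 5 and 12 months, HET (red) left of WT (black) in each exposure, with blue lines at the means and open circles for the pair that goes against its labels. For Acox3 at 12 months after DM, HET libraries run from 8.77 to 8.96 and WT libraries from 8.58 to 8.79.

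Ehhadh, the peroxisomal bifunctional enzyme that carries out the hydration and dehydrogenation after the oxidase step, was lower in HET at 12 months after DM. Its levels there were 5.18, 5.60 and 5.94 (lowest, median and highest) in HET, against 5.66, 5.79 and 5.92 in WT, so that the HET group was wider and held the highest library too. The difference was -0.22 (SE 0.068, adjusted p = 0.0497), and HET was lower in 9 of 10 litters. The call sits at the threshold: it was lost when any of 17 of the 20 libraries was left out, with adjusted p up to 0.139. It was also lost with every varying gene tested (adjusted p = 0.0612), with an intensity trend (0.0537), with batch as a number (0.067) and in males only (0.0704). With the litter as a replicate block the adjusted p was 0.0246. Ehhadh is among the 6 members with a mean deposited value under 6, so the alternative filter at a mean of 6 left it untested. In oil-exposed males of 12 months the levels were 5.47, 5.60 and 5.78 in HET, against 5.50, 5.79 and 5.94 in WT, a difference of -0.17 (SE 0.072, adjusted p = 0.178) with HET lower in 9 of 9 litters. Ehhadh differed by -0.19 (SE 0.066, adjusted p = 0.238) at PND 5 with oil and by -0.0029 with DM. At 18 months it differed by -0.059, at levels of 8.24 to 8.50 in HET and 8.33 to 8.59 in WT. The 18 month values are deposited apart, with a lowest value of 7.2 over all genes, so the size there need not compare with the other ages.

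Of the other 3 members of the peroxisomal list, Hacl1, a lyase of 2-hydroxy acyl chains, and Amacr, the racemase of methyl-branched acyl-CoA, were not called for genotype, at differences between -0.10 and 0.18 over the 5 comparisons. Phyh is taken up with PND 5 below.

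Bckdha, the alpha subunit of the dehydrogenase that commits branched-chain keto acids to breakdown, was higher in HET at 12 months after DM. It had levels of 8.17, 8.38 and 8.49 in HET, against 7.80, 8.10 and 8.36 in WT, with a difference of 0.23 (SE 0.063, adjusted p = 0.0267) and HET higher in 8 of 10 litters. The call was lost without HET replicate 1 (0.21, adjusted p = 0.0683) or 7 (0.21, 0.056), and without WT replicate 3 (0.19, 0.0957), 6 (0.21, 0.076) or 8 (0.21, 0.0574). In oil-exposed males of 12 months the levels were 8.13, 8.43 and 8.53 in HET, against 7.94, 8.25 and 8.50 in WT, a difference of 0.15 (SE 0.066, adjusted p = 0.195) that was called with the litter as a replicate block over all ages (adjusted p = 0.0491) but not with that block within the age (0.112). At PND 5 the mean difference of Bckdha within litters was -0.18 with oil (HET lower in 4 of 6 litters) and -0.03 with DM (6 of 7). At 18 months the direction was also opposite to that of 12 months: 9.63, 9.78, 9.71, 9.85 and 9.78 in HET, against 9.98, 9.88, 9.92, 9.85, 9.87 and 9.83 in WT, a difference of -0.14 (SE 0.042, adjusted p = 0.209). The other subunits of the complex, Bckdhb (E1 beta) and Dbt (E2), differed by -0.046 to 0.069 in all 5 comparisons, with no call.

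Acads, the short-chain acyl-CoA dehydrogenase, had the widest difference of all members at 12 months with oil. Its levels were 6.46, 6.97 and 7.57 in HET, against 6.28, 6.74 and 7.00 in WT, a difference of 0.26 (SE 0.089, adjusted p = 0.107), with HET higher in 7 of 9 litters. After DM the levels were 6.68, 6.93 and 7.26 in HET, against 6.51, 6.75 and 7.00 in WT, a difference of 0.19 (SE 0.085, adjusted p = 0.18). With the litter as a replicate block over all ages Acads was called in both (adjusted p = 0.00982 and 0.04), but with that block within the age in neither (0.0715 and 0.123). Leaving out HET oil replicate 5 also gave a call after oil (0.33, adjusted p = 0.022).

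With the litter as a replicate block, 4 members were called at 12 months after oil, all higher (Acox3, Acads, Bckdha and Hibadh, a dehydrogenase of valine breakdown), while 15.5% of all genes were called in that fit. After DM it was 3 higher and 1 lower, against 14.7% of all genes. When each age was fitted on its own with that block, 1 member was called after oil (2.04% of all genes) and 3 after DM (4.59%). Averaged over both exposures, 3 members were called higher (Acox3, 0.17, adjusted p = 3.4e-05; Bckdha, 0.19, 0.00254; Acads, 0.23, 0.00744) and 1 lower (Ehhadh, -0.20, 0.00391), which is 9.52% of the members against 16.7% of all genes. With the block added, 9 were called higher and 1 lower, against 32.7% of all genes. That fit shares its estimate of the spread between PND 5 and 12 months, and the average was not fitted with the block within the age.

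Part of the oil comparison at 12 months moved with a batch. In the 2 oil litters of batch 1 the mean over the 42 members was higher in HET by 0.26, and in batches 2, 3 and 4 the mean differences were -0.0049, -0.034 and -0.033. Mean differences of 30 cytosolic ribosomal protein genes were 0.69 in batch 1, and -0.029, -0.088 and -0.11 in batches 2, 3 and 4, and those of 32 oxidative phosphorylation genes were 0.42, 0.055, -0.043 and -0.0029. Hibadh differed by 0.51 in batch 1 and by 0.0041, 4.4e-05 and 0.14 in the others, and Acads by 0.62, 0.39, -0.077 and 0.28. Acox3 was higher in HET in every oil litter of each batch, with batch means of 0.26, 0.15, 0.053 and 0.22. Without batch 1, 18 members lay higher and 24 lower after oil, with a median of -0.02 and 0 members called by limma, and Acox3 differed by 0.13 (adjusted p = 0.154). The call of Acox3 after oil was also lost without batch 2 (0.16, adjusted p = 0.0908) or batch 4 (0.14, 0.206), and its call after DM without batch 3 (0.17, 0.0634). Bckdha after DM was lost without batch 2 (0.20, adjusted p = 0.133), 3 (0.26, 0.0596) or 4 (0.23, 0.0952), and Ehhadh without batch 2, 3 or 4 (-0.19 to -0.21, adjusted p = 0.191 to 0.213). The part of the ribosomal shift in these differences was not tested.

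Cell type markers also moved with genotype at 12 months. After oil, 9 of 10 astrocyte markers lay higher in HET (median 0.14, 0 called), 7 of 8 oligodendrocyte markers lower (median -0.14, 1 called) and 5 of 5 choroid plexus markers lower (median -0.43, 0 called). After DM, 8 of 10 astrocyte markers lay higher (median 0.056, 2 called) and 5 of 8 oligodendrocyte markers lower (median -0.025, 0 called). Their part in the differences of the 42 genes was not tested.

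**Figure D3:**
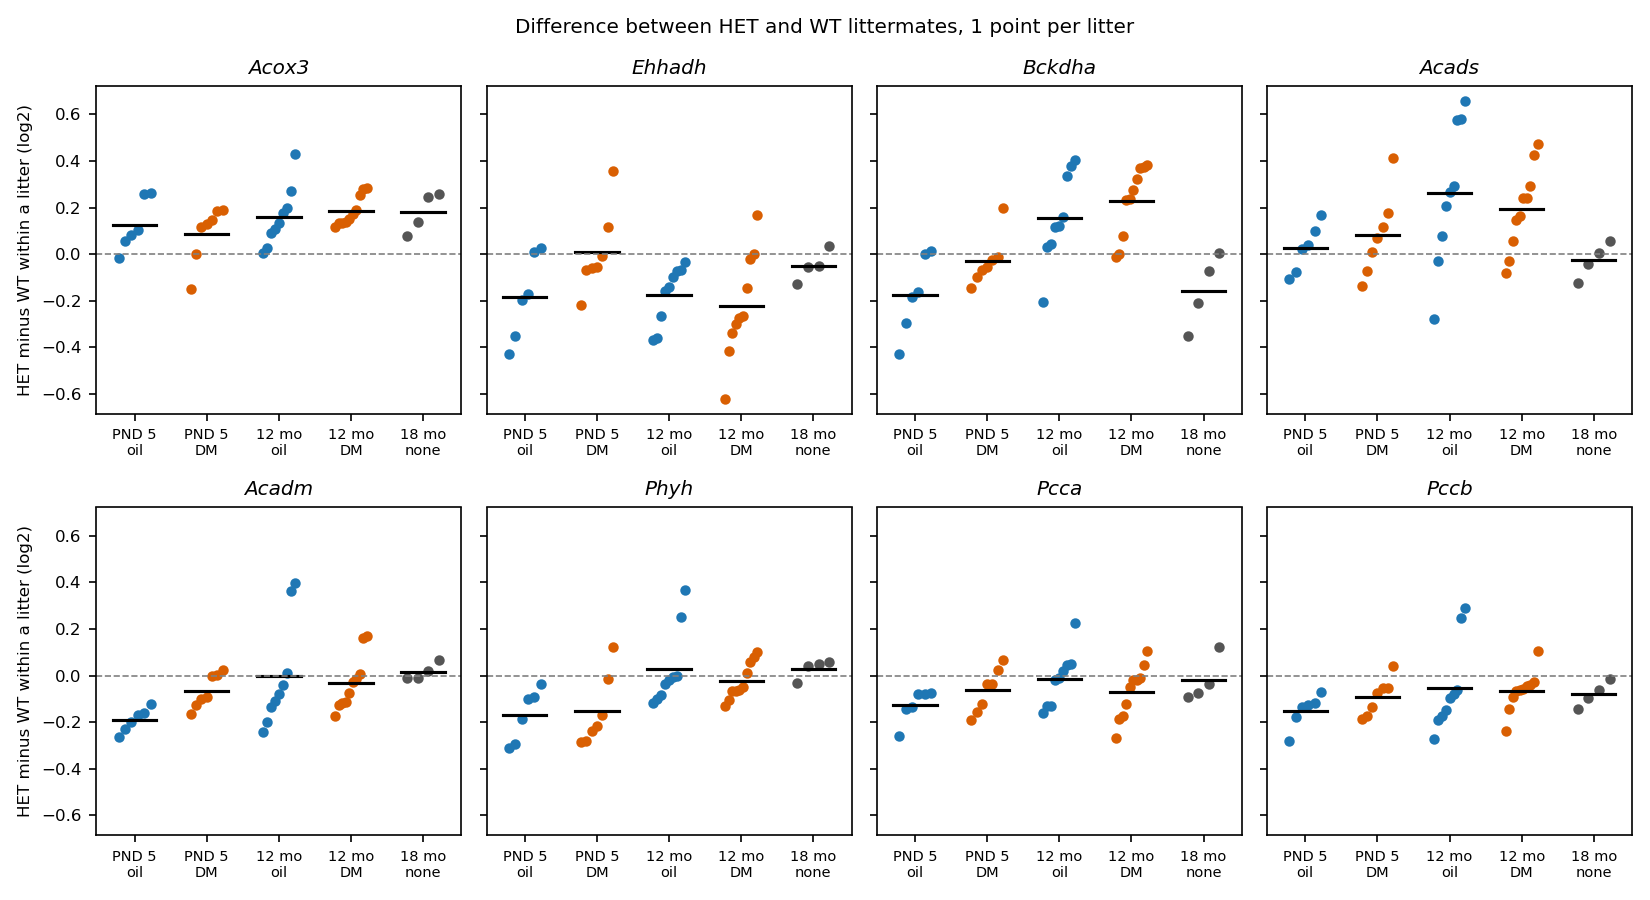
Difference between HET and WT littermates (log2, vertical axis), 1 point per litter (blue oil, orange DM, grey untreated) and a line at the mean, for 8 members at each age and exposure. Acox3 points lie above 0 in 9 of 9 oil and 10 of 10 DM litters of 12 months, and Acadm, Phyh, Pcca and Pccb points lie below 0 in all 6 oil litters of PND 5.

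At PND 5 several members lay lower in HET, while Acox3 lay higher, as given above. In oil-exposed pups Acadm, the medium-chain acyl-CoA dehydrogenase, had levels of 8.00, 8.16 and 8.37 in HET, against 8.26, 8.38 and 8.59 in WT. Phyh, the hydroxylase that opens the breakdown of phytanic acid, had 7.11, 7.19 and 7.34 in HET, against 7.17, 7.35 and 7.53 in WT. Pcca and Pccb encode the subunits of propionyl-CoA carboxylase and Mcee the epimerase of the next step. Pcca had 7.99, 8.12 and 8.26 in HET, against 8.11, 8.25 and 8.44 in WT, and Pccb had 10.35, 10.49 and 10.61 in HET, against 10.49, 10.65 and 10.88 in WT. The ranges overlapped for each of these, and all 5 genes lay lower in HET in 6 of 6 litters.

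The differences were -0.21 (SE 0.061, adjusted p = 0.0997) for Acadm, -0.15 (SE 0.046, adjusted p = 0.133) for Pccb, -0.16 (SE 0.05, adjusted p = 0.134) for Phyh, -0.13 (SE 0.041, adjusted p = 0.171) for Pcca and -0.17 for Mcee, and limma called none. With the litter as a replicate block Acadm (adjusted p = 0.00614), Phyh (0.021), Pcca (0.032) and Pccb (0.035) were called lower, 4 members against 1.39% of all genes, and after DM 0 members were called, against 0.298%. Leaving out the pair that goes against its labels, which belongs to the DM groups but shares the fit, gave 0 calls without the block (0.634% of all genes), and with it these 4 and Acox3 (0.12, adjusted p = 0.0324), against 1.61% of all genes.

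After DM the smallest p at PND 5 belonged to Phyh, with levels of 7.05, 7.18 and 7.34 in HET, against 7.06, 7.37 and 7.47 in WT, a difference of -0.15 (SE 0.05, adjusted p = 0.441) and HET lower in 6 of 7 litters. The lowest WT value is the library labelled WT female 1. Without the pair WT ran from 7.13 to 7.47, the difference was -0.18 (SE 0.051, adjusted p = 0.0873), and with the litter block it was called (-0.17, adjusted p = 0.0219, against 0.997% of all genes). Decr2, a reductase for polyunsaturated chains in peroxisomes (-0.073, adjusted p = 0.584), Acad11 (-0.13, 0.622) and Acad8, the isobutyryl-CoA dehydrogenase of valine breakdown (-0.076, 0.868), came next. Averaged over both exposures at PND 5, Phyh (-0.16, SE 0.036, adjusted p = 0.00538) and Pccb (-0.11, adjusted p = 0.0473) were lower in HET and Acox3 was higher, 3 members against 2.03% of all genes. Without the pair Pcca (-0.11, adjusted p = 0.0258) joined them, 4 members against 2.68% of all genes, and with the litter block alone Acadm (adjusted p = 0.005) and Pcca (0.0099) did, against 3.58%.

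Other lists lay lower in HET pups as well. The median over 7 endothelial markers was -0.065 with oil (7 of 7 lower) and -0.12 with DM (6 of 7), over 5 mural cell markers -0.13 and -0.16 (5 of 5 in each), over 10 astrocyte markers -0.039 and -0.062 (8 of 10 in each), and over the 30 ribosomal protein genes -0.064 (30 of 30) with oil and 0.018 (8 of 30) with DM. None of these markers was called, and their part in the result was not tested. In bulk cortex, fewer cells of a type and less RNA per cell cannot be told apart.

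By role, all 3 propionyl-CoA genes lay lower in HET at PND 5, 12 months and 18 months in each exposure, with medians from -0.043 to -0.15. The 4 genes of hydration and thiolysis (Hadha, Hadhb, Hadh and Echs1) lay lower in 4 of 4 at PND 5 in each exposure. The 3 genes of electron transfer (Etfa, Etfb and Etfdh) lay higher in 3 of 3 at 12 months in each exposure, with medians of 0.076 after oil and 0.081 after DM. After oil their litter means in turn were 0.37, 0.41 and 0.13 in batch 1 and 0.082, 0.025 and 0.11 in batch 2. In batch 3 they were -0.054, -0.043 and -0.028, and in batch 4 -0.027, 0.086 and -0.062. Pcca, Pccb and Mcee lay higher after oil in batch 1, at 0.14, 0.27 and 0.36, and lower in the other batches except Pcca in batch 3 (0.016). The carnitine shuttle genes stayed within -0.10 and 0.12 of WT, and Gcdh, the glutaryl-CoA dehydrogenase of lysine and tryptophan breakdown, within -0.038 and 0.064. No member of these 4 sets was called without the litter block except as given above.

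At 18 months the members after Acox3 and Bckdha with the smallest p were Acad11 and Hibch. Acad11, an acyl-CoA dehydrogenase of long chains, had 10.15, 10.19, 10.12, 10.10 and 10.10 in HET, against 9.99, 10.06, 9.99, 10.07, 10.03 and 10.09 in WT, a difference of 0.092 (SE 0.033, adjusted p = 0.279). Hibch, the hydrolase of 3-hydroxyisobutyryl-CoA in valine breakdown, had 9.27, 9.43, 9.24, 9.36 and 9.41 in HET, against 9.21, 9.33, 9.17, 9.25, 9.24 and 9.14 in WT, a difference of 0.12 (SE 0.044, adjusted p = 0.286). Gene models on the same strand (Gm28305, Gm47000 and Gm46999) overlap Acad11, so reads may be shared. HET values of Acad11 lay above all WT values, and those of Hibch overlapped them. The 4 members without overlap at 18 months were Acox3, Acad11 and Mccc1, higher in HET, and Echs1, lower in HET. None of these 4 was called. How often such separation occurs over all genes was not counted, so their number cannot be read as a trait of the members.

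The difference between genotypes was itself compared between the ages in oil-exposed mice (12 months minus PND 5). limma called 0 members and 0% of all genes, and p lay under 0.05 for 6 of 42 members without correction. 37 members had a positive term, since 5 had a negative one, with a median of 0.096 against -0.003 over all genes. The 12 month side of this term moved with batch 1. There the mean HET minus WT difference of the 42 members within oil litters was 0.26, against -0.0049, -0.034 and -0.033 in batches 2, 3 and 4. Bckdha had the largest term, 0.31 (SE 0.089, unadjusted p = 8.7e-04, adjusted p = 0.402, and 0.0608 with the litter block, where 0.155% of all genes and no member were called), followed in p by Phyh (0.19, adjusted p = 0.55) and Acadm (0.21, adjusted p = 0.573). No member was therefore shown to differ in its genotype effect between PND 5 and 12 months.

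DM was compared with oil within each genotype, which asks whether exposure in early life leaves a mark on these genes. In WT pups of PND 5 Acad9, an acyl-CoA dehydrogenase that also helps to assemble respiratory complex I, was lower after DM, with levels of 9.64, 9.79 and 9.90, against 9.84, 9.87 and 9.90 with oil. The difference was -0.092 (SE 0.023, adjusted p = 0.0107), the 12 oil libraries lay within a narrow band and the DM libraries spread below it. This was 1 of 42 members (30 lay lower) where 8.40% of all genes were called. Leaving out WT DM male 5 ended the call (-0.073, adjusted p = 0.0527), and a gene model on the same strand, Gm43079, overlaps Acad9, so reads of the pair may be shared. Bckdha lay higher after DM in WT pups (0.15, SE 0.06, adjusted p = 0.11).

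In HET pups of PND 5 Bckdha was higher after DM, with 7.30, 7.52 and 7.72, against 7.03, 7.24 and 7.41 with oil. The difference was 0.27 (SE 0.065, adjusted p = 0.0203), the only call among the 42, against 2.05% of all genes. It was lost without HET DM female 1 (0.27, adjusted p = 0.0518), which is the library labelled HET that goes against its label, without HET DM male 3 (0.25, 0.0686) or without HET oil female 5 (0.23, 0.0506), and was kept without the pair as a whole (0.27, adjusted p = 0.0436, against 0.453% of all genes). Ehhadh followed with 0.18 (SE 0.071, adjusted p = 0.155).

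The tests above count animals, while exposure differs between litters. With the litter as a replicate block 0 members and 0% of all genes were called for DM in WT pups (Acad9, adjusted p = 0.12), and 0 members and 0.0259% of all genes in HET pups (Bckdha, adjusted p = 0.142). In either sex alone, or without batch 1, 2 or 3, limma called no member in WT or HET pups, and Bckdha then differed by 0.22 to 0.38 in HET. Ribosomal protein genes lay lower after DM in WT pups (29 of 30, median -0.19, 2 called) and in HET pups (28 of 30, median -0.11), and mural cell markers lay higher (5 of 5 in each, medians 0.29 and 0.21, with 3 and 1 called). Their part in these results was not tested.

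At 12 months, long after exposure had ended, 0 of 42 members differed between DM and oil in WT males, where 0% of all genes were called, and 0 in HET males, where 0.00647% were. No member had an unadjusted p under 0.05 in either genotype. The members with the smallest p were Bckdha (-0.10) and Auh, a hydratase of leucine breakdown (0.073), in WT, and Acad9 (0.044) and Cpt1c, the neuronal member of the carnitine palmitoyltransferases (0.063), in HET. The genotype by DM term called 0 members and 0% of all genes at each age, with 2 members at an unadjusted p under 0.05 at PND 5 (Acad11, -0.17, and Ehhadh, 0.19) and 0 at 12 months. 

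In oil-exposed mice, 30 members were higher and 7 lower at 12 months than at PND 5 in WT (median 0.36), where 78.8% of all genes were called (39.4% higher and 39.4% lower, median 0.0064). In HET 32 were higher and 5 lower (median 0.47), against 79.0% of all genes (39.9% higher and 39.0% lower, median 0.012). Without the pair that goes against its labels these counts were the same, against 78.6% of all genes in each genotype. The share of members called is near that of all genes, and the members lean to the higher side.

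**Figure D4:**
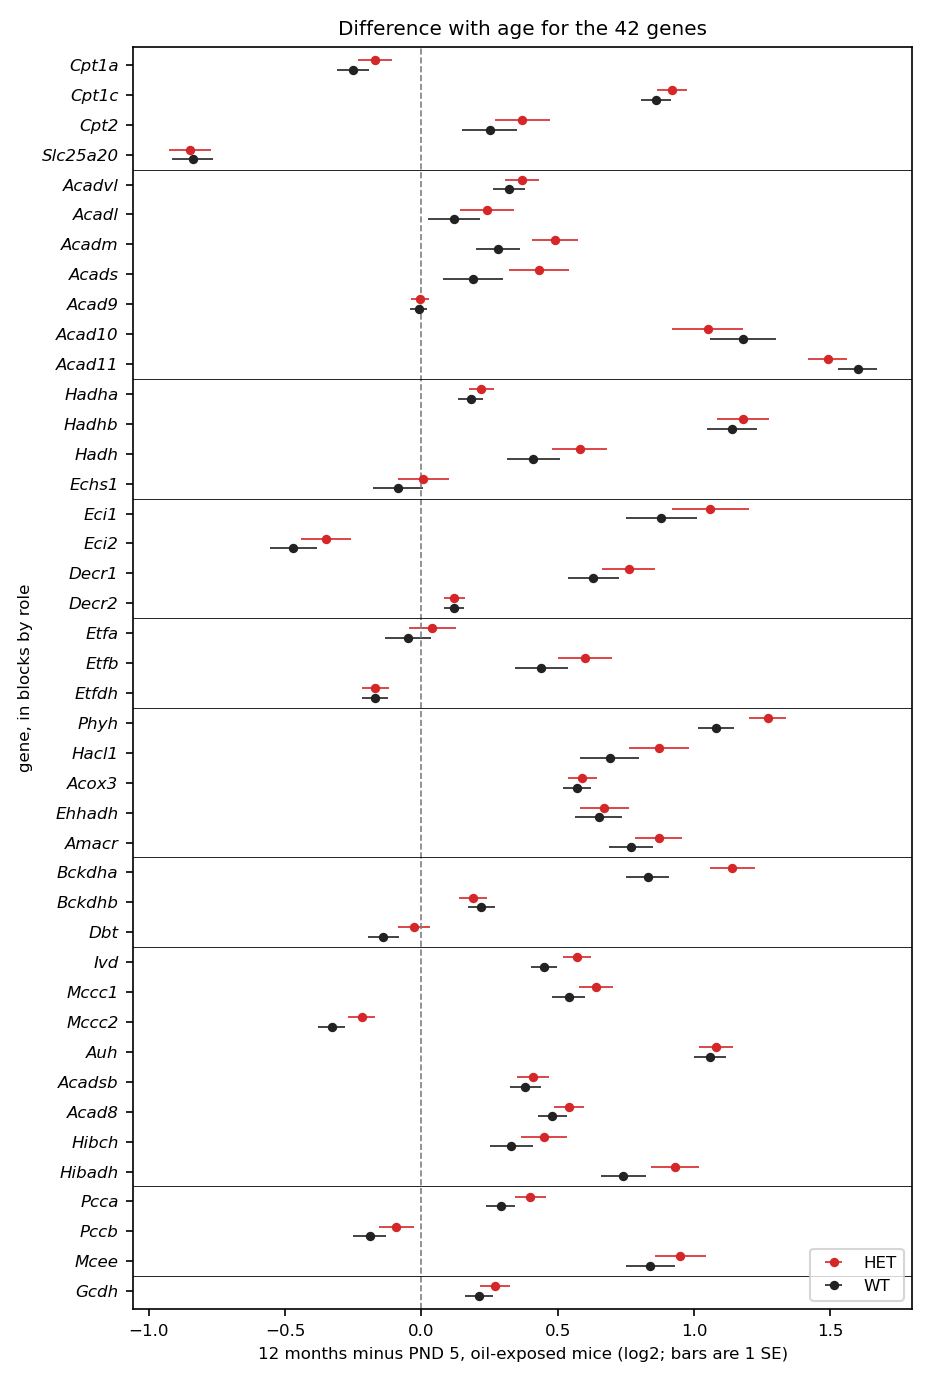
Difference between 12 months and PND 5 in oil-exposed mice (log2, horizontal axis) for the 42 genes by role, HET in red and WT in black, with bars of 1 SE. Acad11 lies furthest to the right (1.49 in HET and 1.60 in WT) and Slc25a20 furthest to the left (-0.85 and -0.84).

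Among the members that rose, Acad11 had levels of 6.40, 7.00 and 7.13 in HET and 6.86, 7.02 and 7.20 in WT at 12 months, against 5.29, 5.47 and 5.62 in HET and 5.24, 5.41 and 5.65 in WT at PND 5. The ages did not overlap. The difference was 1.49 in HET and 1.60 (SE 0.07) in WT. Next in WT came Acad10, of the same family, at 1.18 (SE 0.12), Hadhb at 1.14 (SE 0.091), Phyh at 1.08 (SE 0.066), Auh at 1.06 (SE 0.059) and Eci1, an isomerase for unsaturated chains, at 0.88 (SE 0.13). In HET these genes differed by 1.05, 1.18, 1.27, 1.08 and 1.06. The sizes depend on the technical terms: with groups only, WT differences were 0.64 for Acad11, 0.46 for Hadhb, 0.39 for Phyh and 0.42 for Auh, and HET differences 0.45, 0.43, 0.52 and 0.38. Acad10 differed by as little as 0.17 in HET and 0.37 in WT, under quantile normalization. All 5 members of the peroxisomal list (Acox3, Ehhadh, Phyh, Amacr and Hacl1) rose in each genotype (median 0.87 in HET and 0.69 in WT). Decr2, also peroxisomal but listed with the enzymes of unsaturated chains, rose by 0.12 in each, and 7 of the 8 genes of leucine, isoleucine and valine steps rose while Mccc2, a subunit of methylcrotonyl-CoA carboxylase, fell.

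The subunits of a single enzyme did not change alike. Hadha and Hadhb encode the alpha and beta subunits of the mitochondrial trifunctional protein, lie head to head on chromosome 5 with 85 bases between them, and their promoter windows share 228 bases. Hadhb had levels of 7.56, 7.66 and 8.23 in HET and 7.64, 7.74 and 7.92 in WT at 12 months, against 6.30, 6.60 and 6.80 in HET and 6.38, 6.60 and 6.94 in WT at PND 5. Hadha had 10.02, 10.09 and 10.37 in HET and 10.06, 10.14 and 10.23 in WT at 12 months, against 9.79, 9.89 and 10.09 in HET and 9.89, 9.97 and 10.02 in WT at PND 5. In WT the difference was 1.14 for Hadhb and 0.18 (SE 0.045) for Hadha, and in HET 1.18 and 0.22 (SE 0.047). Mccc1 rose (0.64 in HET and 0.54 in WT) where its partner Mccc2 fell (-0.22 and -0.33), and Pcca rose (0.40 and 0.29) where Pccb lay at -0.092 in HET, with no call, and fell in WT (-0.19), though it turned sign under quantile normalization. No test of the difference between partners was made.

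Slc25a20, the carrier of acylcarnitines across the inner mitochondrial membrane, fell the most. Its levels were 9.57, 9.65 and 10.21 in HET and 9.49, 9.72 and 9.85 in WT at 12 months, against 10.51, 10.61 and 10.70 in HET and 10.38, 10.48 and 10.87 in WT at PND 5, with a difference of -0.85 in HET and -0.84 (SE 0.075) in WT, and of -0.25 and -0.28 with groups only. In the same shuttle Cpt1c rose (0.92 in HET and 0.86 in WT). Cpt2 rose (0.37 and 0.25) and Cpt1a, the liver-type acyltransferase, fell (-0.17 and -0.25), but under quantile normalization Cpt2 turned sign in both genotypes and Cpt1a in HET. Eci2, a second isomerase (-0.35 in HET and -0.47 in WT), and Etfdh, the oxidoreductase that hands electrons to ubiquinone (-0.17 in each), also fell. Dbt differed by -0.028 in HET, with no call, and by -0.14 in WT, where it was called, and the genotype by age term did not call it (0.12, adjusted p = 0.591).

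Under quantile normalization Acads, at 0.43 in HET, where it was called, and 0.19 in WT, where it was not, also turned sign in WT, and the genotype by age term did not call it (0.24, adjusted p = 0.59). In males of 1 dissector, 28 members were higher and 5 lower in WT, and 29 higher and 2 lower in HET. When no technical terms were fitted, 12 were higher and 2 lower in WT and 21 higher and 0 lower in HET. All mice of 12 months were males dissected by 1 person.

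The cell makeup of the cortex changed with age in the same samples. In WT, 8 of 8 oligodendrocyte markers rose (median 4.68), 7 of 10 astrocyte markers rose and 1 fell (median 0.99), and 8 of 8 markers of progenitors and immature neurons fell (median -3.91). Oxidative phosphorylation genes rose in 17 and fell in 2 of 32 (median 0.25), and 30 of 30 ribosomal protein genes fell (median -0.76). The part of these shifts in the age differences of the 42 genes was not tested.

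A list of 41 further genes of fat and branched-chain metabolism was counted beside the members. For genotype, 0 were called at PND 5 in either exposure and 0 at 18 months, and 4 at 12 months after oil, where 1.81% of all genes were called, all higher in HET: Mmab (0.20, adjusted p = 0.00552) and Mmaa (0.17, 0.042), which prepare and load the cobalamin cofactor, Mut (0.17, 0.0311), the methylmalonyl-CoA mutase that uses it, and Rxra (0.15, 0.0355), a nuclear receptor that pairs with the PPARs. Without batch 1 none of these 4 was called (adjusted p = 0.0564 for Mmab, 0.0757 for Mut, 0.332 for Rxra and 0.23 for Mmaa), and leaving out single libraries ended the call in 4 of 18 cases for Mut, 8 for Rxra and 11 for Mmaa. After DM, where 3.64% of all genes were called, Mut (0.15, adjusted p = 0.0334) and Acaa1a (0.16, 0.0371), a peroxisomal thiolase, were higher in HET, with the call lost in 7 and 10 of 20 cases when 1 library was left out and, for both, without batch 2, 3 or 4, and for Acaa1a also without batch 1. The mutase genes stand at the end of the propionyl-CoA route, whose members Pcca, Pccb and Mcee lay at -0.012, -0.054 and -0.062 after oil and at -0.069, -0.066 and -0.10 after DM, with no call.

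For DM in WT pups 3 of the further genes were called higher and 2 lower, against 8.40% of all genes, among them Rxra (0.17, adjusted p = 0.00477), Esrra, the oestrogen-related receptor alpha (0.27, 0.0275), Acsl3, an acyl-CoA synthetase (-0.14, 0.0162), and Dld, the shared lipoamide dehydrogenase (-0.097, 0.0174). In HET pups Acsl3 was lower (-0.15, adjusted p = 0.0476), against 2.05% of all genes. With the litter as a replicate block these had adjusted p of 0.0843 to 0.196. With age, 24 of the further genes rose and 14 fell in HET, and 23 rose and 15 fell in WT, against 79.0% and 78.8% of all genes called. Rxra (1.80 in HET and 1.71 in WT) and Ppm1k, the phosphatase that switches on the branched-chain dehydrogenase (2.28 and 2.41), rose, and the ketone body enzymes Bdh1 (-2.29 and -2.23) and Acat1 (-1.42 and -1.44) fell. All 4 ketone body genes fell in WT and 3 of 4 in HET.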

How the data were processed

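RNA sequencing of polyA-selected, stranded, paired-end libraries of mouse cortex was used. Per the study's methods, reads passed FASTX filtering and cutadapt 1.12, STAR 2.5.2b placed them on mm10, and Salmon gave transcript abundances. The authors stabilized the variance of the counts with DESeq2. What the authors deposited is in log2 units from which the authors removed technical terms. Without groups in the model, the 82 libraries of PND 5 and 12 months show slopes of 0 for litter rank, dissector, sex and batch number in each gene, and the 11 libraries of 18 months for litter rank. Levels are therefore shifted gene by gene. The tables hold no counts, so read depth per library and its part in the precision are unknown. No libraries were identical.

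R 4.3.3 with limma 3.58.1 fitted group with batch, sex, dissector and litter rank (18 months: genotype and litter rank). Of 20160 varying genes, 4710 with tied floor values were left out, and of 18657 at 18 months, 2236. Adjusted p is Benjamini-Hochberg over all genes tested. The fit without the litter block was tried on simulated data, for genotype at 12 months with oil only. The simulated libraries were independent, so that trial does not cover correlation among littermates. Alternatives were other filters, an intensity trend, median centring, quantile normalization, groups only, batch as a number, each age or males alone, a litter block, sample weights, and leaving out batches or libraries. Averages over exposures, females alone and leaving out the pair that goes against its labels were added after the data were seen. Residuals of littermates correlated at a median of 0.222 at PND 5 (55 pairs), 0.0414 at 12 months (19 pairs) and -0.192 at 18 months (6 pairs). The labels give the litters, so the litter was taken as the pairing for genotype, as a fixed term. For DM and age, which differ between litters, the litter block was a correlation among littermates instead.

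The 42 genes, the further lists and the tests were chosen with earlier results of these data known. Named are members called for genotype, DM or an interaction in the main or the litter block fit, the 4 members of smallest p for each genotype comparison and the 2 for each DM comparison, the 6 higher and 6 lower with the largest age difference in WT, Acadm and Phyh, and up to 4 called further genes of smallest p per comparison. Others are named to complete a role. Members that overlap another gene model on the same strand, microRNAs aside, are Acad9, Acad11, Acadl, Acadsb, Dbt, Etfb, Etfdh, Hacl1, Hibadh, Mccc1 and Pcca, whose reads may be shared. Positions follow GENCODE M21 (mm10), promoters from RefSeq on GRCm38.p6. Figures were drawn with Python 3.11.15, pandas 2.3.3, numpy 2.4.6 and matplotlib 3.10.9.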

Additional observations from a re-analysis of the deposited data

Results flagged for a closer look

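In 72 groups of named genes and libraries, the highest and lowest library were compared with their neighbours, a check that chance alone trips in about 1 in 20 groups, and 3 stood apart. Acad11 in HET DM male 5 of PND 5 had a level of 5.08, below the next library at 5.32 and the group median of 5.42, a gap of 0.502 of the group's range against a critical value of 0.466. Cpt1c in HET DM replicate 10 of 12 months had 8.99, against 9.13 in the next library and a median of 9.18, a gap of 0.545 of the range. Chd8 in the library labelled HET female 1 of PND 5 with DM had 12.46, against 11.86 in the next library and a median of 11.70, a gap of 0.592 of the range, and this library belongs to the pair left out as an alternative throughout PND 5.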

How the results depend on the processing

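Counts of called members under other settings are given here, and the cause of each change was not tested. For genotype at PND 5 with oil (0 called), 3 were called with each age on its own, 4 with the litter block, over all ages or within an age, 5 with sample weights, 2 without batch 1 and 5 with the block and without the pair that goes against its labels. At PND 5 with DM (0 called), each of sample weights, leaving out batch 1, and the block without that pair gave 1. At 12 months with oil (1 called), 2 were called with each age on its own or without batch 3, 4 with the block, and 0 with groups only or without batch 1, 2 or 4. At 12 months with DM (3 called), 1 was called without batch 2 or 4 and 0 without batch 3 or with groups only. For DM in WT pups (1 called), 3 were called with each age on its own or with sample weights, and 0 with groups only, in males only, in females only, with the block, or without batch 1, 2 or 3. For DM in HET pups (1 called), 2 were called with each age on its own, and 0 with quantile normalization, groups only, males only, females only, the block, or without batch 1, 2 or 3. With groups only, 14 members were called for age in WT and 21 in HET. Averaged over exposures at PND 5 (3 called), 5 were called with the block, 7 with the block and without the pair, 6 with each age on its own, 7 without batch 1 and 0 without batch 2 or 3. Averaged at 12 months (4 called), 10 were called with the block, 7 without batch 1 or with each age on its own, and 2 without batch 2. Bckdha for DM in WT pups turned to -0.013 with groups only.

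Leaving out 1 library at a time gave 0 to 1 members for genotype at PND 5 with oil, 0 to 2 at 12 months with oil, 1 to 3 at 12 months with DM, 0 to 1 for DM in WT and in HET pups, 36 to 38 for age in WT and 37 to 37 in HET, and 0 in the remaining comparisons. For single genes, leaving out 1 library ended a call in 32 cases and gave one in 2, while 542 kept direction and side of the threshold. Under the other alternatives 34 lost a call, 34 gained one and 399 kept both.

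Over all genes, the litter block as a pairing gave 125 higher and 90 lower calls for genotype at PND 5 with oil (main 61 and 29), 805 and 1596 at 12 months with oil (107 and 172), 1021 and 1251 at 12 months with DM (334 and 229), and 1 and 2 at 18 months (10 and 14). For DM, where littermates share the exposure and are not paired, the block gave 0 and 0 in WT pups (741 and 557) and 4 and 0 in HET pups (200 and 117). With groups only the calls in that order were 11 and 2, 0 and 1, 25 and 19, 39 and 47, 88 and 7, and 0 and 0, and for age 3631 and 3505 in WT and 2787 and 2762 in HET. Apart from the calls given here and beside the results, the block changed no call of a member. Read depth per library is unknown, so no limit from counting can be given.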
